A study of Mus musculus with 16 samples.

Results

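At E8.5, 9575 Stat3 null and WT cells of types other than Erythroid were compared, out of 41832 cells in the deposited single-cell matrix. They were chosen by stage, by the authors' quality filter and doublet call, and by the sort gate. A cell was null when it was sorted as tdTomato positive, and WT when it was sorted as tdTomato negative and held no tomato-td UMI (a UMI is a tag that marks 1 captured mRNA molecule). The cells came from 4 libraries, 2 null and 2 WT, each made by 10x 3' sequencing from a pool of about 4 chimeric embryos according to the labels. The study's methods and supplement give other numbers of embryos for this stage, so the size of the pools is uncertain. Null library A gave 3239 cells, null library B 1015, WT library A 2118 and WT library B 3203. The labels put a null and a WT sample in each embryo pool, but the names of the libraries could not be matched to sample titles, so the letters A and B are names only and stand for no pairing in the labels.

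In these chimeras, Stat3 null embryonic stem cells (ESCs) that carry a tdTomato transgene were injected into WT CD1 host blastocysts, so null and WT cells grew side by side in the same embryos. Donor cells and hosts were both of the outbred CD1 background, and the tagged lines were grown from colonies of transfected cells. Null cells therefore differ from WT cells in Stat3, in the transgene and in their passage through ESC culture, and on an outbred background they can differ in other alleles. These cannot be told apart by the comparison. Chimeras made with WT ESCs were not analysed here, and no source used here says how many null lines were injected. Since the labels name 2 separate pools at E8.5, the p-values measure the spread between embryo pools and their libraries.

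STAT3 is a transcription factor that cytokine receptors of the IL-6 and LIF family activate through JAK kinases, after which it enters the nucleus and switches on targets such as Socs3 and Pim1. In mouse ESCs it holds the naive state downstream of LIF. In embryos after implantation, tissues such as neural tube, somites, limb and gut are laid down over the days studied here, and each has its own regulators (Meox1 in somites, Wnt1 at the boundary of midbrain and hindbrain, Pax1 in pharyngeal pouches and sclerotome).

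The cell types are those the authors transferred from an atlas. Of 80 types other than Erythroid, 19 held over 15 cells in each of the 4 libraries and were tested; they held 5676 of the 9575 cells. In all 19, most of the marker genes fixed for the class of the type lay above the median of the tested types. In 15, at least 1 marker was highest there. Related types shared a marker list, such as those of spinal cord, hindbrain and optic vesicle, so the check does not tell such types apart. No marker was highest in cranial mesoderm, lateral plate mesoderm, optic vesicle or spinal cord progenitors. All 6 markers of migratory neural crest, Foxd3 and Sox10 among them, and all 5 of the allantois were highest in that type. The smallest number of cells of a tested type in a library was 16, in thyroid primordium of WT library A. Levels are given as CPM, the UMIs of a gene scaled to a common library total.

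The libraries differed in ways other than genotype. The median UMI count per cell ran from 17262 in WT library B to 29502 in WT library A, and the share of cells whose nearest atlas cells were of E9.0 or later was 40.1% and 37.0% in WT and null library A against 23.9% and 20.8% in WT and null library B. By this measure the libraries of 1 letter were closer to each other than to the other library of their genotype, but samples were not paired by their values, and the fits hold no term for it. A tomato-td UMI was seen in 89.8% of null library A cells (exact 95% interval 88.8 to 90.8%), 72.3% of null library B cells (69.6 to 74.8%), 0.469% of WT library A cells (0.243 to 0.819%) and 0.104% of WT library B cells (0.0285 to 0.267%); intervals cover counting error only. Xist, the RNA that coats the inactive X, was at 121 CPM in WT library B, 4.62 in null library B and 0.102 or less in the others, and it was left out of the tests. Pairs of libraries shared 0 to 8 cell barcodes, at most 0.209% of the smaller library. Counts of the 2 libraries of a group differed by more than sampling noise in both groups, so no library was counted as a copy of another.

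Stat3 itself, the deleted gene, was lower in the null libraries but still detected. To give each library the same makeup, the same number of cells of each of the 19 types was drawn from every library (585 cells each) and summed; this sum is called the type-matched sum. In it Stat3 stood at 3.39 and 4.01 CPM in WT libraries A and B and at 1.45 and 1.16 CPM in null libraries A and B. The groups did not overlap, with means of 3.70 ± 0.436 (SD, n = 2) in WT and 1.31 ± 0.205 (SD, n = 2) in null. The exact two-sided permutation test gave p = 0.33, the smallest that 2 against 2 libraries allow. The fitted log2 fold change was -1.47 (SE 0.304), and with an adjusted p of 0.237 Stat3 did not pass the test over all genes (edgeR quasi-likelihood test, Benjamini-Hochberg). It was -0.85 when null cells without a tomato UMI were left out, over the 14 types that then held enough cells. A 3' tag lies downstream of the deleted exons, so the level of Stat3 does not by itself show the deletion.

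The mean Stat3 level was lower in null than in WT cells in 16 of the 19 types, and in 12 the 2 null libraries were both under the 2 WT ones. Stat3 was scarce throughout, with 223 UMIs in WT and 93 in null cells of the 19 types together. In the allantois, where the WT level was among the highest, it was 8.81 and 7.31 CPM in WT libraries A and B and 1.60 and 2.73 CPM in null libraries A and B. In lateral plate mesoderm the WT libraries held 6.05 and 6.66 CPM, null library A none and null library B 0.994 CPM. The mean null level was above the WT mean in 3 types with few Stat3 UMIs: hindbrain floor plate (9 null and 4 WT UMIs), thyroid primordium (5 and 1) and cardiopharyngeal progenitors FHF (2 and 3). Some of the 12 types without overlap held as few, such as pharyngeal endoderm (1 null and 5 WT UMIs) and surface ectoderm (2 and 5). In pharyngeal endoderm, WT library B and null library A held 1 UMI each (0.451 and 0.432 CPM), so such gaps carry little weight.

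**Figure D1:**
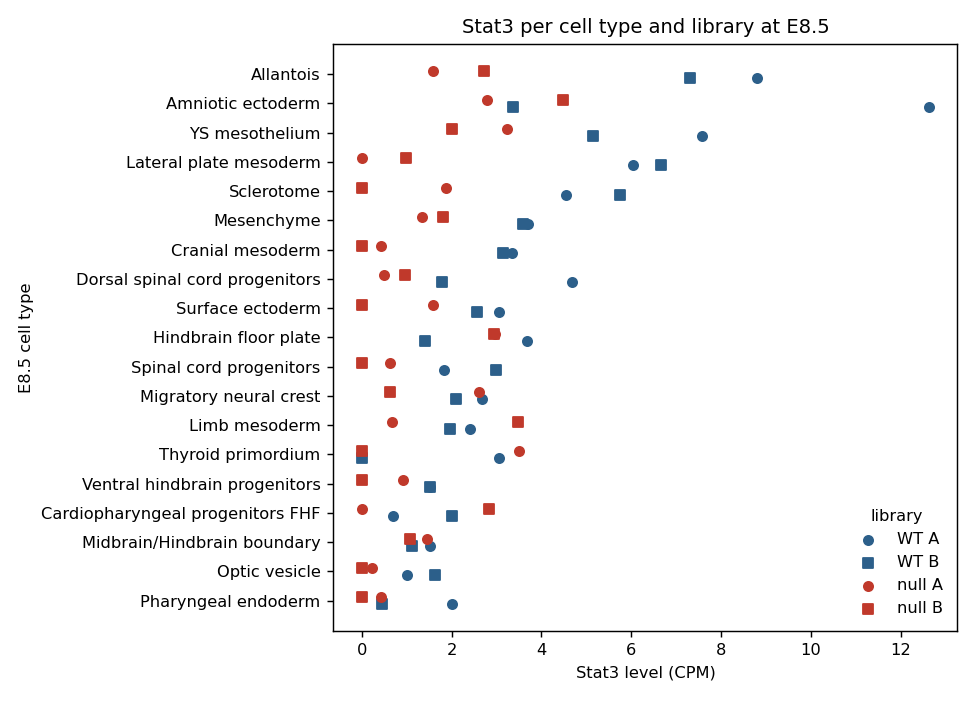
Stat3 level in CPM (x axis) in each of the 19 tested E8.5 cell types (y axis, ordered by the WT mean). Each point is 1 library, blue for WT and red for null, circles for library A and squares for library B. Both red points lie left of both blue points in 12 types.

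Few genes differed between null and WT cells within a type, and the same small set recurred. All 19 types come from the same 4 libraries, so they are no independent replicates. A difference between the libraries can recur in every type. A gene was called when its adjusted p was under 0.05 and it changed over 2-fold. Over the 19 types, 158903 tests of a gene in a type gave 94 calls, or 0.0592%, of which 47 were higher and 47 lower in null cells, in 47 genes. No gene was called in both directions. Of the 47 genes, 31 were called in 1 type and 16 in at least 2 types, and these 16 made up 63 of the 94 calls. Limb mesoderm had most calls (9 higher, 7 lower), followed by cranial mesoderm (6 and 7), pharyngeal endoderm (8 and 3) and dorsal spinal cord progenitors (5 and 2). Null library B held few cells of these types, 17, 18, 26 and 37 in that order. Whether the number of calls differs between types was not tested. The allantois had 0 calls by edgeR, with 190 genes at an unadjusted p under 0.05. The number of calls moved strongly with the libraries: it was 686 without null library A, 393 without null library B, 189 without WT library A and 158 without WT library B, where a lone library is assumed to vary like the other group. DESeq2 called 32.

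**Figure D2:**
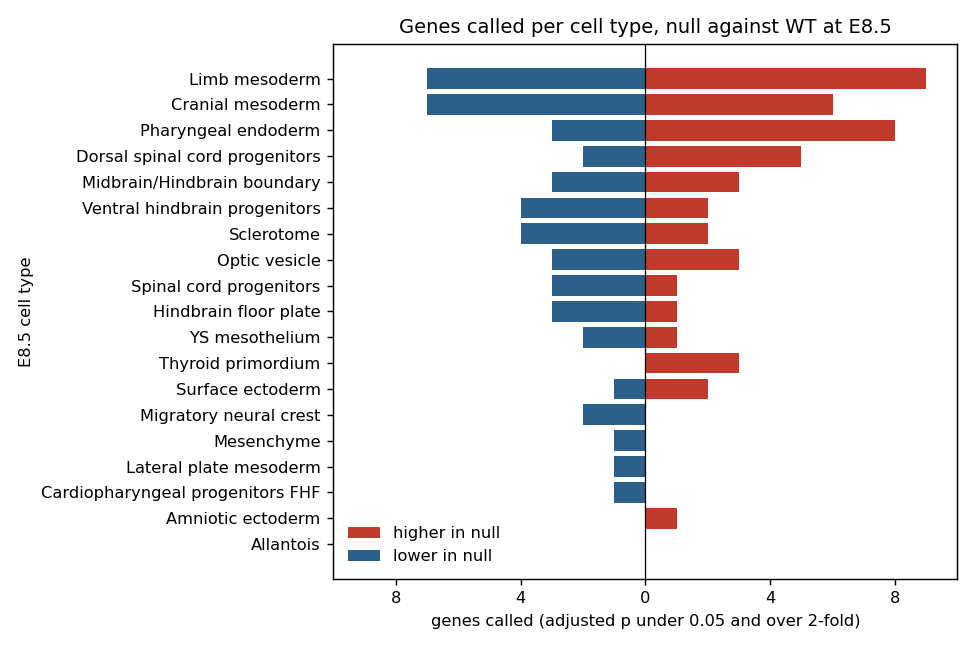
Number of genes called (x axis) in each E8.5 cell type (y axis), higher in null to the right in red and lower to the left in blue. Limb mesoderm stands at 9 and 7, and the allantois at 0.

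Among the genes lower in null cells, Hist1h4i, a replication-dependent histone H4 gene at chr13:22040636-22041362, recurred most. It was called lower in 13 of 19 types, and its null libraries were under its WT libraries, without overlap, in all 19. Over all tests of a gene in a type, such a gap with null lower was present in 18% and with null higher in 14.8%. These are shares of single tests and give no background for a gap in all 19 types. The counts cover only transcripts captured by 10x 3' sequencing, and what share of histone transcripts this captures was not measured. Across types, Hist1h4i ran from 0 to 28.6 CPM in the null libraries and from 20.5 to 67.7 CPM in the WT libraries. In limb mesoderm it was 45.5 and 45.1 CPM in WT and 11.3 and 13.9 CPM in null libraries, and in pharyngeal endoderm 49.5 and 45.1 against 15.5 and 12.5 CPM. The fold changes of the 13 calls were close to each other, from -1.97 to -1.43 (log2). With 1 library left out it was called in 10 to 15 types, and by DESeq2 in 7.

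Akr1e1, an aldo-keto reductase, was called lower in 7 of the 17 types that tested it, with no overlap of the groups in any of the 17. Its WT levels kept between 9.22 and 29.6 CPM over types, and its null levels between 0 and 11.1 CPM. The largest change was in migratory neural crest, at 26.7 and 22.2 CPM in WT and 2.93 and 0.635 CPM in null libraries (log2 fold change -3.46, SE 0.392, edgeR adjusted p = 0.00065). Without null library B it was called in 12 types, with another left out in 6 to 8, and by DESeq2 in 2. Pusl1, named for its likeness to pseudouridine synthases, was called lower in 5 of 18 types, and the groups did not overlap in 17. In cranial mesoderm it fell from 37.7 and 32.2 CPM in WT libraries to 5.06 and 12.3 CPM in null libraries. Pusl1 was called in 13 types without null library B, 3 without null library A, 7 without WT library A and 3 without WT library B, and in 1 by DESeq2. Null library B held more Pusl1 than null library A in the type-matched sum (15.03 against 6.87 CPM), and there Pusl1 was not called (log2 -1.44, SE 0.404, adjusted p = 0.986).

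Meox1, a homeobox factor of the somites, was called lower in 3 types. In cranial mesoderm it was 63.7 and 61.3 CPM in WT and 15.6 and 16.3 CPM in null libraries (log2 -2.01, SE 0.256, edgeR adjusted p = 1.3e-05). In hindbrain floor plate the WT libraries held 27.0 and 39.6 CPM and the null libraries 5.95 and 1.47 CPM, and in limb mesoderm 29.4 and 18.96 against 9.92 and 3.47 CPM. It lay below 0 in 11 of the 12 types that tested it, without overlap in 8. In optic vesicle it was higher without overlap, at 3.68 and 2.16 CPM in WT and 6.94 and 5.64 CPM in null libraries, and did not pass the test (log2 1.19, SE 0.453, adjusted p = 0.998). In sclerotome, a derivative of the somites, Meox1 was not called. With either WT library left out it was called in 2 types, and by DESeq2 in 1. Its level in the type-matched sum was 25.1 and 25.5 CPM in WT and 15.2 and 11.3 CPM in null libraries (log2 -0.92, adjusted p = 0.0482), short of the 2-fold threshold. Meox1 lies 938 kb from Stat3 on chromosome 11.

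Hist1h2bj, a histone H2B gene, and Eif3j1, a subunit of translation initiation factor eIF3, were each called lower in 3 types, and neither overlapped between groups in any type that tested it (18 and 19). Hist1h2bj was called in 0 types without WT library A, 5 without WT library B, 1 without null library A and 9 without null library B, and in 0 by DESeq2. Eif3j1 was called in 11 types without null library A, 1 without null library B, 4 and 3 without WT libraries A and B, and 2 by DESeq2. Hist1h2bj begins 1.85 kb after the end of Hist1h4i on the opposite strand. Of the 51 clustered histone genes tested in at least 1 type, these 2 were the ones called, with 16 calls lower and 0 higher, beside 47 of all 11153 genes and 94 calls in all; in the type-matched sum 54 histone genes had a median log2 fold change of -0.07 beside -0.00 for all 12277 genes. The H4 genes resemble one another, and so do the H2B genes. Of the 31-base words in the last 500 bases of its transcripts, 17.2% for Hist1h4i and 67.2% for Hist1h2bj also occur in other genes, so the Hist1h2bj count is the less certain one.

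**Figure D3:**
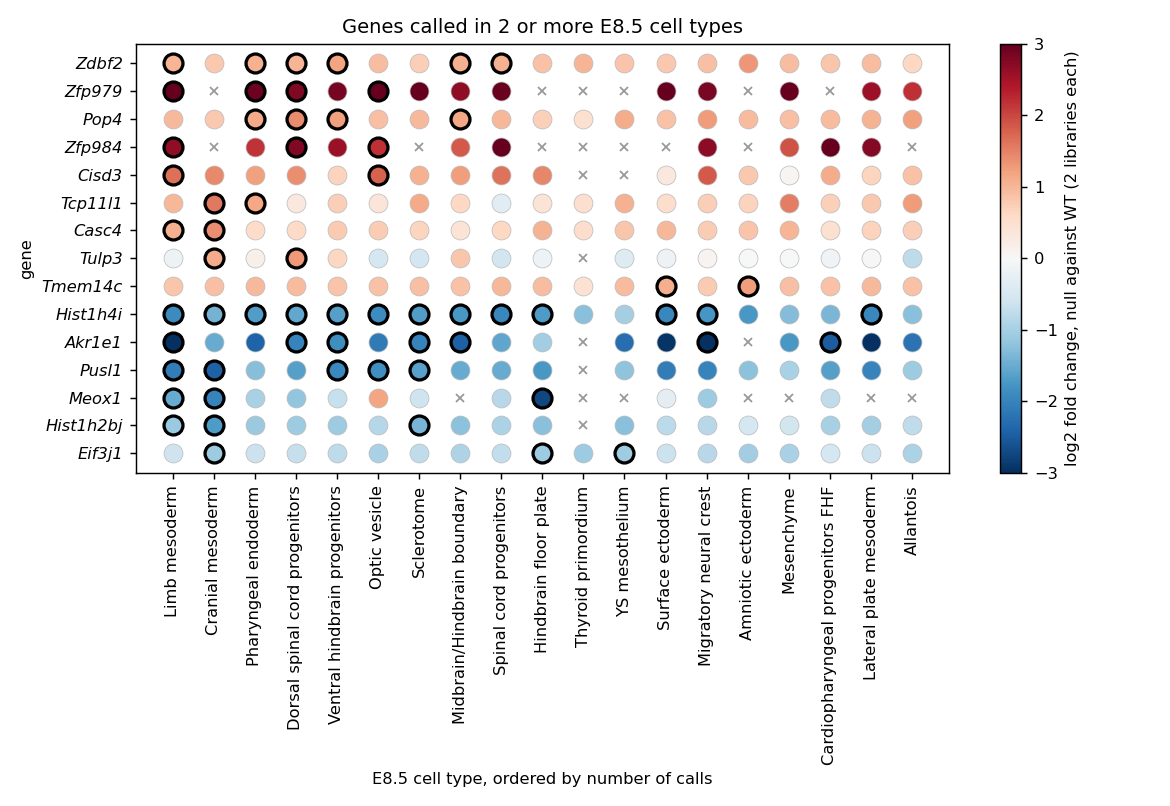
Log2 fold change of null against WT (colour, 2 libraries each, cut at 3 in both directions) for 15 of the 16 genes called in at least 2 types (rows) in the 19 E8.5 cell types (columns, by number of calls). Black rings mark calls and crosses mark types in which the gene was not tested; Hist1h4i is blue in all 19 and ringed in 13, while Tulp3 runs from -0.78 to 0.84 outside its 2 ringed types.

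Among the genes higher in null cells, a set of zinc-finger genes on chromosome 4 rose together. Zfp985 ends 26.7 kb before Zfp979, and Zfp979 ends 111 kb before Zfp984. Genes of this class encode DNA-binding proteins, many of which silence transposable elements through a KRAB domain. Their promoters (250 bases before to 50 after the start, RefSeq, GRCm38.p6, 5' to 3') are shown because the 3 genes moved together, with the longest run that all 3 share in capitals.
Zfp985 (chr4:147553027-147553326, plus strand): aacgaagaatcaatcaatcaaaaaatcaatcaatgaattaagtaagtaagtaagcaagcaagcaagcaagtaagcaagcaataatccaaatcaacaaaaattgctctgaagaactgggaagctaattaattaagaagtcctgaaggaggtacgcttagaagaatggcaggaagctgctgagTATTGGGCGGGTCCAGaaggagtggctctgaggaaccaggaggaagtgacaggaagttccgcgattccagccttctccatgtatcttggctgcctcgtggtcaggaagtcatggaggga
Zfp979 (chr4:147642459-147642758, minus strand): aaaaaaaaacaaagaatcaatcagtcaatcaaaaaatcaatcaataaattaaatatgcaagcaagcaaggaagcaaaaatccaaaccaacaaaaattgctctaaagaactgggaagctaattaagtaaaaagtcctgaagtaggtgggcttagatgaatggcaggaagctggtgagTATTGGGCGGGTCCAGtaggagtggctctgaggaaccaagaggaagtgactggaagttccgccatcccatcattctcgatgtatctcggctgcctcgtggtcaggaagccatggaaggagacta
Zfp984 (chr4:147809739-147810038, minus strand): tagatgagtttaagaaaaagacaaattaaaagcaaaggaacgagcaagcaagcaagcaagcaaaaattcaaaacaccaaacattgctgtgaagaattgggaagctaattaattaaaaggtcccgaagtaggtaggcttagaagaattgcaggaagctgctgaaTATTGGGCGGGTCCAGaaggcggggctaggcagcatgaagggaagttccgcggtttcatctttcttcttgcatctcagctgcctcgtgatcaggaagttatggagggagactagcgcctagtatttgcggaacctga
The shared run is 16 bases long and stands in 9 of the 32851 promoters searched. These are the promoters of Gm13212, Rex2, Zfp600, Zfp979, Zfp980, Zfp982, Zfp984, Zfp985 and Zfp988. The search did not cover every chromosome. Aligned without gaps, the promoters of Zfp979 and Zfp985 were identical at 249 of 295 bases, and those of Zfp984 and Zfp985 at 175 of 282.

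In the type-matched sum, Zfp979 was at 1.33 and 0.652 CPM in WT libraries A and B and at 10.4 and 9.84 CPM in null libraries A and B (log2 fold change 3.27, SE 0.279, adjusted p = 0.0019). Zfp984 was at 1.39 and 0.839 CPM in WT and 10.3 and 8.55 CPM in null libraries (log2 3.02, SE 0.267, adjusted p = 0.0019). Zfp985 was at 0.33 and 0.559 CPM in WT, 6 UMIs in each library, and at 4.54 and 5.50 CPM in null libraries (log2 3.57, SE 0.376, adjusted p = 0.0076). Zfp990, at chr4:145510759-145539188, rose from 6.22 and 6.06 to 14.7 and 18.5 CPM (log2 1.46, adjusted p = 0.015). Both null libraries lay above both WT libraries in every type that tested the gene, 13 for Zfp979, 11 for Zfp984, 6 for Zfp985 and 17 for Zfp990. A type tests a gene here only if its counts pass a minimum in 2 libraries, which the null libraries alone can meet. Zfp979 was called in 4 types, and in 10 without null library B, 2 without null library A and 1 without WT library B; Zfp984 was called in 3 types, and in 6, 2 and 1. DESeq2 called them in 1 and 0 types. In the sum, Zfp984, Zfp985 and Zfp990 lost their call without WT library A (adjusted p = 0.085, 0.274 and 0.317), and Zfp990 also without WT library B (0.124).

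The neighbours did not all move. Zfp982, upstream of Zfp985 and with the same run in its promoter, had a log2 fold change of -0.54 (SE 0.325), Zfp992 0.27 (SE 0.144) and Zfp933 0.16 (SE 0.247), and none was called. Of the 31-base words at the transcript ends, 27.6% for Zfp979, 54.1% for Zfp984, 39.6% for Zfp985 and 49.0% for Zfp990 occur in other genes, so reads can be lost or shared between copies and the values are uncertain to that extent.

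Zdbf2, an imprinted gene expressed from the paternal allele, was called higher in 6 of 19 types, and the null libraries lay above the WT libraries in 18. It was called in 2 types without null library A, 9 without null library B and 4 with either WT library left out, and in 4 by DESeq2. In ventral hindbrain progenitors it was 80.5 and 89.5 CPM in WT and 191.8 and 193.2 CPM in null libraries (log2 1.20, SE 0.123, edgeR adjusted p = 0.00012), and in the type-matched sum 62.7 and 59.2 against 143.1 and 106.6 CPM. Pop4, a protein subunit of ribonuclease P, was called higher in 4 types and lay above 0 in all 19, without overlap in 18. It was called in 15 types without null library A, and in 4 or 5 without another. In dorsal spinal cord progenitors it was 27.1 and 25.4 CPM in WT and 57.9 and 88.4 CPM in null libraries. Tmem14c, a mitochondrial membrane protein needed for haem synthesis, was called higher in surface ectoderm and amniotic ectoderm, and its groups did not overlap in any of the 19 types (76.3 to 135.2 CPM in WT, 122.6 to 250.6 CPM in null libraries). It was called in 7 types without null library A and in 7 without WT library B. Casc4 and Tcp11l1, called in 2 types each, were also higher in null cells over most types, and each had non-overlapping groups in 17. Casc4 was called in 4 types without null library A and 1 with either WT library left out, Tcp11l1 in 5 without null library B, 0 without WT library A and 1 without WT library B, and DESeq2 called neither. Casc4 ends 92.3 kb before Eif3j1 on chromosome 2.

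Some genes were called in a pair of types. Of these, Cisd3 lay above 0 in all 17 types that tested it, without overlap in 13. Cisd3, a mitochondrial iron-sulfur protein, was called in limb mesoderm and optic vesicle, in 5 types without null library B, 3 without null library A, 0 without WT library B and 0 by DESeq2. Tulp3, which carries receptors into cilia, was called higher in cranial mesoderm (23.5 and 30.6 CPM in WT, 60.4 and 59.2 CPM in null libraries) and in dorsal spinal cord progenitors (20.9 and 23.1 against 48.3 and 61.5 CPM). In the type-matched sum Tulp3 did not pass the test (log2 -0.04, SE 0.294), and it lay below 0 in 11 of 18 types, without overlap in 4. With either WT library left out it was called in 1 type, and by DESeq2 in 0. Whether these genes differ more in one type than in another was not tested.

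Regulators of patterning gave 4 calls: the 3 of Meox1, and Pax1, higher in pharyngeal endoderm. Pax1 was at 13.6 and 11.7 CPM in WT and 41.0 and 35.9 CPM in null libraries there (log2 1.63, SE 0.273, edgeR adjusted p = 0.00017). In thyroid primordium Pax1 stood the other way, at 33.6 and 64.8 CPM in WT and 3.49 and 0 CPM in null libraries, and did not pass the test (adjusted p = 0.209). In sclerotome its groups overlapped, with 59.3 CPM in null library A and 11.9 in null library B. Hmx2, a homeobox gene of ear and brain, was at 1.01 and 4.06 CPM in WT and 12.95 and 17.2 CPM in null pharyngeal endoderm. That was the 1 type that tested it, and the null libraries alone can meet the minimum for a test. In the type-matched sum its groups overlapped, at 0.167 and 1.03 CPM in WT and 0.567 and 1.04 CPM in null libraries (log2 0.67, SE 0.751). In pharyngeal endoderm Mt1, a metal-binding metallothionein, fell from 304.1 and 315.8 to 143.8 and 112.3 CPM. Among ligands and feedback genes the single call was Wnt1 at the midbrain/hindbrain boundary, the signal that keeps this boundary, at 54.7 and 45.0 CPM in WT and 15.7 and 19.2 CPM in null libraries (log2 -1.59, SE 0.226, edgeR adjusted p = 0.0052). Of 55 patterning regulators and 59 ligands or feedback genes tested in at least 1 type, no other was called, and the 35 Hox genes of the type-matched sum had 0 calls by edgeR, DESeq2 or limma-voom, with 1 at an unadjusted p under 0.05. Over all features, edgeR called 47 of 11153 genes in some type. In the sum it called 11 of 12277 genes, and 550 had an unadjusted p under 0.05. The number that DESeq2 and limma-voom called over all genes of the sum is not given. Their 0 here and in the lists below therefore has no background and adds no support. Other calls of the types with most calls included Nol4l (higher in cranial mesoderm), Eef2k (lower) and AC132325.2, known by a clone name (higher, with null library B at 27.8 and A at 8.55 CPM) in limb mesoderm, and Adamts1 (lower in pharyngeal endoderm).

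H19, the maternally expressed noncoding RNA beside Igf2, differed widely between the null libraries. It was at 662.3 and 559.9 CPM in WT libraries A and B of the type-matched sum, 271.8 CPM in null library A and 13.01 CPM in null library B. Both null libraries were therefore below both WT libraries, but they differed from each other so much that H19 did not pass the test (log2 -2.11, SE 1.79, adjusted p = 0.999). The same order held in all 19 types. In YS mesothelium, for example, the WT libraries held 2559 and 2264 CPM, null library A 1436 and null library B 12.02 CPM. H19 was called in spinal cord progenitors alone, at 60.4 and 69.0 CPM in WT and 18.1 and 8.57 CPM in null libraries. Igf2 was at 293.9 and 229.0 CPM in WT and 373.8 and 435.1 CPM in null libraries (log2 0.65, SE 0.136, adjusted p = 0.368). Besides H19, imprinted genes called in 1 type were Nnat, higher in thyroid primordium, and Slc38a4, higher in YS mesothelium. Of the 45 listed imprinted genes in the type-matched sum (Zdbf2 was not on the list) 0 were called by edgeR, DESeq2 or limma-voom, with 9 at an unadjusted p under 0.05 beside 550 of all 12277 genes, and their median log2 fold change was -0.02.

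The type-matched sum, in which all libraries hold the same number of cells of each type, called 11 of 12277 genes (0.0896%), 9 higher and 2 lower. Besides the 4 zinc-finger genes, Zdbf2 and Hist1h4i, they were Cisd3, Fam196b, Hspb2, Trhde and Pde1c. All 11 had non-overlapping groups, which a call with 2 libraries a group nearly entails, so it adds no support to the calls. Cisd3 was at 5.89 and 6.80 CPM in WT and 15.8 and 14.0 CPM in null libraries (log2 1.26, SE 0.157, adjusted p = 0.0165). Hspb2, a small heat shock protein, was at 2.39 and 1.77 CPM in WT and 6.75 and 7.27 CPM in null libraries. Its call was lost in 6 of 14 other settings, among them another draw of the cells (log2 1.06, adjusted p = 0.54) and the mean over types (0.29, adjusted p = 0.98). Pde1c, a calmodulin-regulated phosphodiesterase, was at 6.06 and 8.67 CPM in WT and 1.64 and 2.02 CPM in null libraries (log2 -1.96, SE 0.278, adjusted p = 0.029). It was also called in a single type. Cisd3, Hspb2, Pde1c, Fam196b, Trhde and Zdbf2 were each no longer called when either WT library was left out. The sum called 54 genes without null library A, 17 without null library B, 3 without WT library A and 4 without WT library B, and without matching the cell numbers 6.

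Fam196b and Trhde were almost confined to the null libraries at this depth of 10731415 UMIs to 17993633 UMIs per library. Fam196b had 53 and 47 UMIs in null libraries A and B, 4 in WT library A and 0 in WT library B, where a count of 0 allows up to 0.28 CPM. Trhde, an enzyme that degrades thyrotropin-releasing hormone, had 23 and 25 UMIs in the null libraries and 1 in each WT library. The ratio of Trhde levels was 21.4 (exact 95% interval 5.61 to 182, counting error only). Fam196b was tested in 2 types and Trhde in none, so these calls rest on sums over types.

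No gene of the list of STAT3 targets passed the test. Of 25 listed targets, 20 were tested in the type-matched sum and 0 were called by edgeR, DESeq2 or limma-voom (1 at an unadjusted p under 0.05), beside 11 called and 550 at an unadjusted p under 0.05 among all 12277 genes. These edgeR shares are near each other, so the counts are no result about the targets. The 0 of DESeq2 and limma-voom has no count over all genes beside it and adds nothing to this. As many lay above 0 as below it (10 and 10), and the median log2 fold change was -0.00, the same as that of all genes at 2 decimals. Socs3, the feedback inhibitor, was at 7.28 and 7.08 CPM in WT and 7.25 and 6.05 CPM in null libraries. Pim1, a survival kinase, was at 61.5 and 48.1 CPM in WT and 52.6 and 42.5 CPM in null libraries (log2 -0.19, SE 0.131), with overlapping groups. Vegfa and Irf1 showed the largest values of the list, 0.32 (SE 0.176) and -0.57 (SE 0.390), and neither passed the test.

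The receptors and kinases above STAT3 are read against the same background. Of 38 receptors, JAKs and STATs other than Stat3, 25 were tested and 0 were called by any of the 3 tools (0 at an unadjusted p under 0.05). Il6st, the shared gp130 receptor chain, was at 21.2 and 20.6 CPM in WT and 19.7 and 21.7 CPM in null libraries, and Lifr at 15.1 and 12.9 against 12.4 and 12.3 CPM. Stat5b, near Stat3 on the chromosome, was at 6.34 and 4.29 CPM in WT and 4.16 and 3.97 CPM in null libraries (log2 -0.39, SE 0.241). Of the 31 listed neighbours of Stat3 that were tested, 0 were called by the 3 tools (3 at an unadjusted p under 0.05). The 2 of largest change were Ptrf (log2 -1.34, SE 0.463) and Vps25 (log2 0.92, SE 0.395). Ptrf was at 4.22 and 1.58 CPM in WT and 1.01 and 1.34 CPM in null libraries. Vps25 was at 1.11 and 1.30 CPM in WT and 1.64 and 2.81 CPM in null libraries. That list holds neither Meox1 nor Rdm1. By position, 2 of 45 genes tested in a type within 1 Mb of Stat3 were called in some type (Meox1 and Rdm1), and 3 of 155 within 5 Mb (these and Cisd3), beside 47 of all 11153 genes tested.

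Lists of metabolism and cell cycle gave 0 calls in the type-matched sum and 1 call among the types. Over all 12277 genes of the sum, 550 had an unadjusted p under 0.05, which is the background for the counts given here. The 79 genes of oxidative phosphorylation had a median log2 fold change of 0.05, with 58 above 0 and 21 below, and 0 calls (4 at an unadjusted p under 0.05); Ndufc2 and Lyrm7, the genes named for this list, were at 0.25 (SE 0.094) and -1.47 (SE 0.428). Lyrm7, a factor for assembly of respiratory complex III, was at 2.67 and 6.24 CPM in WT and 1.45 and 1.59 CPM in null libraries. Of 36 genes of glycolysis and hypoxia the median was 0.07 with 0 calls in the sum (7 at an unadjusted p under 0.05), and Ldhb was called higher at the midbrain/hindbrain boundary. The 42 S phase genes had a median of 0.03 and the 54 G2/M genes one of -0.07, with 0 calls and 1 and 6 at an unadjusted p under 0.05. The 35 p53 and apoptosis genes had a median of 0.04 and 0 calls (3), with Ccng1 at 0.79 (SE 0.331) and Cdkn1a at 0.59 (SE 0.207). The interferon list had a median of 0.09 over 15 genes and 0 calls in the sum (1), and Ifitm3 was called higher in hindbrain floor plate. Immediate early and heat shock genes (25 tested), the pluripotency list (10) and the X-linked genes (4) had medians of -0.00, 0.05 and -0.04, with 0 calls and 0 at an unadjusted p under 0.05. DESeq2 and limma-voom also made 0 calls in each of these lists, with no count over all genes beside it.

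The erythroid genes, read here in types other than Erythroid, had a median of -0.36 in the type-matched sum and of -0.07 over their 127 tests in single types. Of 15 tested in the sum, 11 lay below 0 and 0 were called by the 3 tools (1 at an unadjusted p under 0.05). Among all 12277 genes of the sum, 6169 lay below 0, 11 were called by edgeR and 550 had an unadjusted p under 0.05. Gata1, the master factor of red cells, was at 0.889 and 0.932 CPM in WT and 0.694 and 0.183 CPM in null libraries. Mt2, a listed member that is a metallothionein like Mt1 and no marker of red cells alone, was at 43.5 and 27.7 against 28.2 and 12.5 CPM. Haemoglobin transcripts made up 0.296% and 0.197% of UMIs in these cells of WT libraries A and B and 0.194% and 0.0637% in null libraries A and B. Their part in the median was not tested.

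In numbers of cells, no type other than Erythroid passed the test. Of 67 types with at least 20 cells, 0% were called (edgeR, with 3 at an unadjusted p under 0.05; DESeq2 also gave 0 and 3). Thyroid primordium made up 2.28% and 1.77% of the cells in null libraries A and B and 0.755% and 0.749% in WT libraries A and B (log2 1.49, SE 0.371, adjusted p = 0.492). Hindbrain floor plate made up 3.30% and 3.15% in null and 1.65% and 1.34% in WT libraries (adjusted p = 0.492). The erythroid progenitors derived from the chorion and allantois, a group apart from the type named Erythroid, numbered 2 and 0 cells in null and 47 and 14 cells in WT libraries (adjusted p = 0.492). In each of these 3 the groups did not overlap. The same held in other types that did not pass the test, such as midgut, foregut and ventral hindbrain progenitors (log2 -0.08 in the last). The lack of overlap therefore adds no support to a shift in these 3 types. The share of all cells in Erythroid was not part of this test.

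The same measurement in libraries of other embryos gave the direction for most of the 11 genes. At E9.5 (4 null and 4 WT libraries) 32 of 13184 genes were called in the type-matched sum, 0.243%, and at E7.5 (2 and 2) 28 of 11209, 0.25%. All 11 genes were tested at both stages. At E7.5 all 11 kept the sign and 4 were called (Zfp984, Zfp985, Zfp990 and Fam196b), and at E9.5 9 kept the sign and 4 were called (Hist1h4i, Zdbf2, Fam196b and Trhde). None was called in the opposite direction. The stages are separate embryos, and whether all null libraries share 1 donor line is not given in the sources used here.

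Hist1h4i was at 12.4 to 14.4 CPM in the null and 38.7 to 65.4 CPM in the WT libraries at E9.5 (log2 -1.98, adjusted p = 0.0046), and Zdbf2 at 130.8 to 150.3 against 66.5 to 70.8 CPM (log2 1.06, edgeR adjusted p = 1.6e-07). Akr1e1 and Pusl1, which were called per type at E8.5 but not in the sum, were called lower in the sum at both other stages. Akr1e1 was at 9.18 and 11.2 CPM in WT and 1.09 and 2.35 CPM in null libraries at E7.5. Stat3 was called lower at both stages too, from 8.03 and 8.59 CPM in WT to 0.73 and 1.05 CPM in null libraries at E7.5, and from means of 4.89 ± 0.252 to 2.06 ± 0.135 CPM (SD, n = 4, exact permutation p = 0.0286) at E9.5. The study's methods give fewer embryos at E9.5 than there are libraries of a genotype, while the labels give each pool its own embryo. If libraries share an embryo, p-values at E9.5 are too small.

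The zinc-finger genes and others varied among WT libraries of other stages. Zfp979 was at 3.88, 3.78, 0.0781 and 3.20 CPM in the 4 WT libraries of E9.5 and at 9.18 and 7.46 CPM in those of E7.5, beside 1.33 and 0.652 CPM at E8.5. In the null libraries it stayed between 8.99 and 17.3 CPM. At E9.5 Zfp979 and Zfp984 did not pass the test (adjusted p = 0.345 and 0.416). Eif3j1 ran from 55.8 to 296.9 CPM among E9.5 WT libraries, and Casc4 was at 49.4 and 50.3 CPM in 2 of them and at 25.3 and 24.8 CPM in the remaining ones. Pop4 at E7.5 stood at 58.7 and 63.0 CPM in WT and 58.9 and 54.4 CPM in null libraries. At E9.5 it was at 39.4, 39.5, 72.1 and 69.0 CPM in WT and 66.7 to 77.4 CPM in null libraries. Tmem14c at E9.5 was at 187.6, 189.8, 100.6 and 105.8 CPM in WT and 177.5 to 198.5 CPM in null libraries. Both genes had overlapping groups there and did not pass the test (edgeR adjusted p = 0.650 and 0.653). H19 at E9.5 was at 387.5 to 440.1 CPM in WT and at 7.505 to 82.4 CPM in null libraries, and was not called (edgeR adjusted p = 0.133). At E7.5 it was called lower, at 509.2 and 428 CPM in WT and 58.4 and 57.9 CPM in null libraries (log2 -2.97, SE 0.108, edgeR adjusted p = 1.9e-08).

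**Figure D4:**
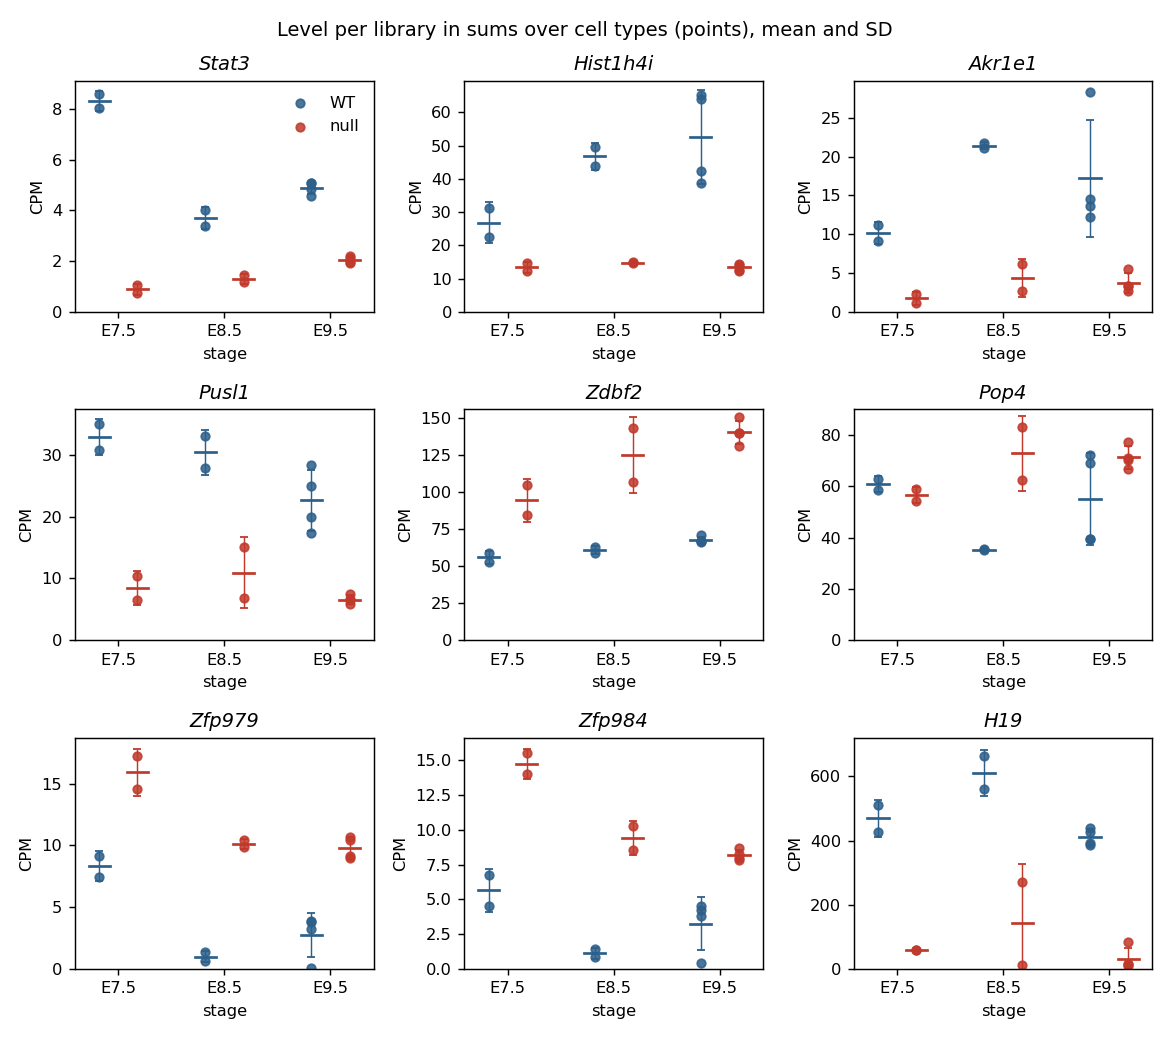
Level in CPM (y axes, linear from 0) of 9 genes in sums over cell types, for WT (blue) and null (red) libraries of the 3 stages; points are libraries, short lines the mean and bars the SD. WT Zfp979 and Zfp984 lie higher at E7.5 than at E8.5, and the 2 null libraries of H19 lie apart at E8.5.

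The stages were also compared directly. Of 12165 genes, 1 (0.00822%) had a fold change that differed between E9.5 and E8.5 by the interaction test, and none of the 11 genes was called (4 at an unadjusted p under 0.05, beside 504 of all genes tested, 0 by DESeq2). In the same way, each library's Erythroid cells were set against its other types. Of 12457 genes, 8 (0.0642%) differed, all with a lower null-to-WT ratio in Erythroid cells; none of the 11 genes was among them (5 at an unadjusted p under 0.05, beside 936 of all genes tested, 0 by DESeq2). Hist1h4i and Akr1e1 were called lower in Erythroid cells as well, Hist1h4i at 57.2 and 74.1 CPM in WT and 18.3 and 19.5 CPM in null, and Akr1e1 at 10.0 and 11.5 against 0.854 and 0.994 CPM (edgeR adjusted p = 0.0048 for both). Zfp985 was called higher there (adjusted p = 0.032). Stat3 in Erythroid cells was at 16.7 and 18.7 CPM in WT and 5.77 and 2.19 CPM in null libraries, and was not called there (log2 -1.93, adjusted p = 0.194).

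**Figure D5:**
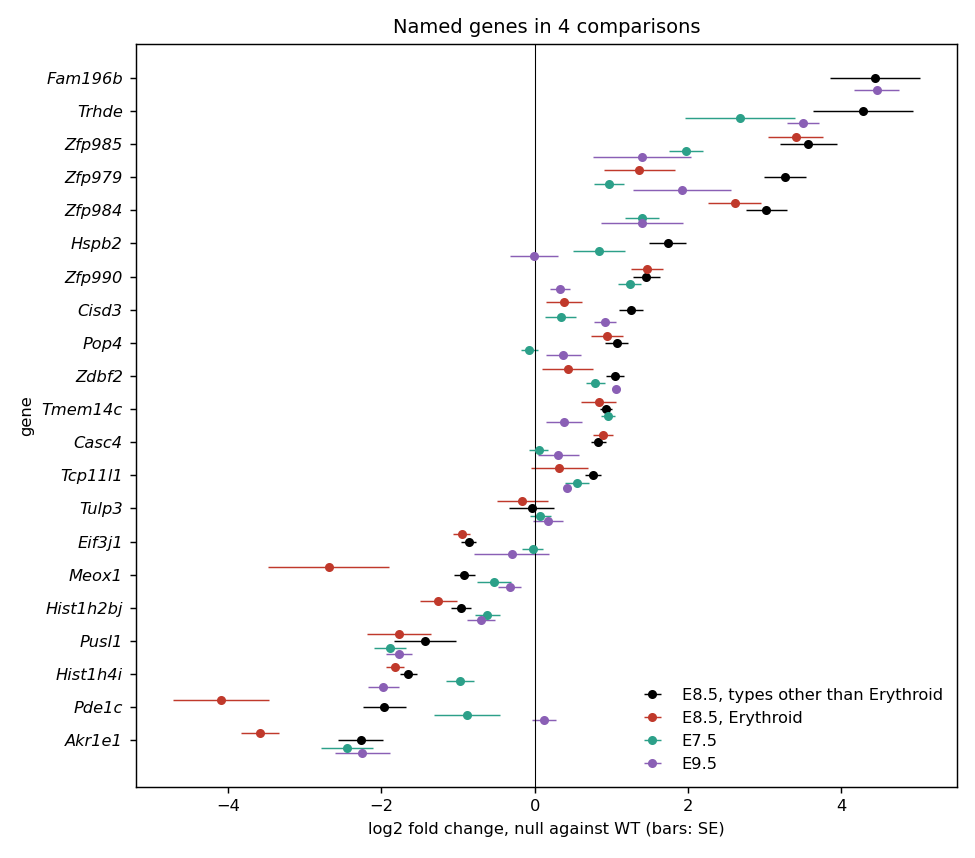
Log2 fold change of null against WT (x axis, bars are SE) for genes called in at least 2 types or in the type-matched sum (y axis), in E8.5 types other than Erythroid (black), E8.5 Erythroid cells (red), E7.5 (green) and E9.5 (purple). Points are left out where a group held no UMI or the gene was not tested; Hist1h4i and Akr1e1 lie left of 0 in all 4, and Hspb2 and Pde1c lie near 0 at E9.5.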

How the data were processed

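Per the labels and the study's methods, the authors made 10x 3' v3 libraries from sorted cells, ran Cell Ranger on mm10, transferred cell types from an atlas and deposited UMI counts per gene and cell; a count is used as deposited. Their metadata give library, stage, sort gate, doublet call, cell type, the label score as a fraction and the mitochondrial share as a percent, per the file headers. Deposited cells held at least 10003 UMIs. Cells called doublets, and cells of the WT gate that held a tomato-td UMI, were left out. Counts were summed per library and type and tested with edgeR 4.0.16 (quasi-likelihood, robust, filterByExpr, TMM, Benjamini-Hochberg within a type); calls needed an adjusted p under 0.05 and over 2-fold. Names beginning with Gm and a digit, mt-, Rps or Rpl, names with Rik, haemoglobins, Xist, Tsix, tomato-td and Y-linked genes were not tested (8178 of 29453). Limma 3.58.1 and DESeq2 1.42.0 served as alternatives, and the fits were tested on simulated data. CPM are scaled to the UMIs of all genes in the sum and compare a gene between libraries, not genes by length, since 3' tags do not scale with length. Per-library totals in the type-matched sum were 10731415 UMIs to 17993633 UMIs.

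Named genes were Stat3; the genes called in at least 2 types (at most 12 a direction); the called genes of the type-matched sum with non-overlapping groups (at most 10 a direction); the 3 of largest change a direction in the 4 types with most calls; list members called, or the 2 of largest change where none was. Other list members and neighbours in the text were named after their values were seen. The cells, lists and tests were chosen with earlier results of these data known. Coordinates are GRCm38 (GENCODE vM21); promoters are from RefSeq. The study's fit used the embryo pool as a block, which was not possible here. The labels give about 4 embryos a pool. Of the recurrent genes, 1 called in 2 types is counted but not reported here.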

Additional observations from a re-analysis of the deposited data

Results flagged for a closer look

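In 8 genes the difference between null and WT cells at E8.5 itself differed between Erythroid cells and the other types (edgeR interaction test with the library as a block, adjusted p under 0.05). The difference of log2 fold changes, Erythroid minus other types, was -1.33 for Pim1 (adjusted p = 0.0066), -1.37 for Plin2, -2.28 for Plac8, -2.98 for Rasl11a, -7.88 for Krt15, -2.01 for Sox4, -2.07 for Cdh2 and -2.73 for Fgf8. Pim1, a STAT3 target, was at 269.9 and 259.4 CPM in Erythroid cells of WT libraries A and B and 99.9 and 92.0 CPM in those of null libraries A and B, while in the other types it was at 61.5 and 48.1 against 52.6 and 42.5 CPM. Plin2, which coats lipid droplets, was at 161.3 and 158.1 against 61.1 and 68.8 CPM in Erythroid cells, and at 42.5 and 36.0 against 41.4 and 36.8 CPM in the other types. Krt15 was at 248.7 and 91.8 CPM in WT Erythroid cells and at 0.407 and 0 CPM in null ones. Sox4, Cdh2 and Fgf8 were low in Erythroid cells of all 4 libraries, for example Fgf8 at 2.53 and 3.61 CPM in WT and 0.732 and 0.398 CPM in null cells. The number of such genes was 59 without null library A, 114 without null library B, 290 without WT library A, 118 without WT library B and 43 by DESeq2.

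In 1 gene, Cwc22, a splicing factor, the difference between null and WT cells was larger at E9.5 than at E8.5, with a difference of 1.48 in log2 fold change (interaction term in edgeR, adjusted p = 4.8e-06). Over the types shared by both stages it was at 69.3 and 79.1 CPM in WT and 104.1 and 131.9 CPM in null libraries at E8.5, and at 36.6 to 40.01 CPM in WT and 161.9 to 182.3 CPM in null libraries at E9.5. The number of such genes was 5 without null library A of E8.5, 3 without null library C of E9.5, 2 without WT library A of E9.5 and 3 by DESeq2.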

How the results depend on the processing

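No paired analysis was possible because the libraries named in the cell table could not be matched to sample titles, so the embryo pool of a library is not known and no replicate block could be fitted. Beside 94 calls over the types, the number was 32 with DESeq2, 348 with no low-count filter, 147 with no fold threshold, 47 with all 16 libraries in the fit, 49 with equal cells per library and 8 with over 50 cells per library (2 types tested); leaving out a replicate gave 158 to 686. Beside 11 calls in the type-matched sum, it was 27 with no filter, 20 with no fold threshold and 6 with no matching of cell numbers, and 3 to 54 with a replicate left out. Stat3 passed the test with all 16 libraries (log2 -1.47, adjusted p = 0.0041) and in no other setting; it was -1.60 to -1.34 with a replicate left out and -0.85 when null cells without a tomato UMI were left out, over 14 types. The stage difference called 2 genes with no filter and 3 with DESeq2, and 1 to 5 with a replicate left out. The Erythroid difference called 43 genes with DESeq2, and 59 to 290 with a replicate left out. Causes of these changes were not tested, except that fewer types or genes enter some of the settings. The number of called cell types was 0 in every setting tried. No direction was reversed. Hist1h4i was called in the type-matched sum in all 14 settings, Zfp979, Zfp984 and Zfp985 in 12, and Zdbf2, Hspb2 and Trhde in 8. With 2 libraries a group, an exact test cannot go below p = 0.33, and low genes such as Stat3 and Trhde rest on few UMIs.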
